A study of Mus musculus with 40 samples.

Results

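Endothelial cells line the blood vessels of the brain and, joined by tight junctions, form the blood-brain barrier. The list described here holds 36 genes by which these cells and their barrier are recognised. They were listed by gene symbol, with earlier results of these data known. All 36 were found among the 26792 gene symbols of the count table. The RNA came from hypothalami of Aldh1l1-eGFP-L10a mice, in which the Aldh1l1 promoter, active in astrocytes, drives a fluorescent tag on the ribosomal protein L10a. Tagged ribosomes were pulled down with the messages on them (translating ribosome affinity purification, TRAP), which gave a pull-down library (IP), and the RNA left behind gave a supernatant library (SN). All mice carried the transgene. The groups were sham-operated mice on chow (7 samples), sham-operated mice on high-fat diet (HFD; 6 samples) and orchiectomised mice on HFD (7 samples). The labels call the orchiectomised mice GDX or ORX, and the diets lasted 4 weeks. Each sample gave both fractions, so 40 libraries entered. The age of the mice is not given in the sources used here, and no orchiectomised group on chow was analysed. The labels do not say that 1 sample number is 1 mouse, so every p-value reflects the variation among these samples, which may be technical in part.

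In brain endothelium, vascular endothelial growth factor and angiopoietins act through receptor kinases (Flt1, Kdr, Tek, Tie1), and cadherin and claudin junctions seal the gaps between cells. Transporters such as Slc2a1 for glucose and Mfsd2a for lipid carry nutrients across, and efflux pumps such as Abcb1a send drugs back to the blood. Astrocyte endfeet wrap these vessels, but astrocytes are not known to make most of these genes. Slc2a1 and Slco1c1 are among the exceptions, being made by astrocytes as well. Which other members, Mfsd2a included, have an astrocyte share was not tested here. The pull-down is designed to hold messages from astrocyte ribosomes, and the supernatant holds RNA of all cells of the tissue.

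Short stretches upstream of transcription starts are shown first, as a description of sequence that was not tested against the levels given further on. They come from the promoter table of RefSeq on GRCm38.p6, which held 23 of the 36 members. The 250 bases before each start were searched on both strands for 4 short motifs: CCGGAAG and CAGGAAG (recognised by ETS factors such as Erg), AACAAT (SOX factors such as Sox17 and Sox18) and CCACCCC (KLF factors such as Klf4). The 240 bases from 250 to 11 before the start are printed 5′ to 3′ on the gene's strand for the vascular endothelial growth factor receptors Flt1 and Kdr, which hold the KLF-type motif, Tek, which holds the SOX-type motif, Cd34, which holds an ETS-type motif, and Mfsd2a, which holds none and whose level had the smallest range over the pull-downs among the members. Capitals mark the motif, which reads as its reverse complement where it lies on the other strand.
Flt1: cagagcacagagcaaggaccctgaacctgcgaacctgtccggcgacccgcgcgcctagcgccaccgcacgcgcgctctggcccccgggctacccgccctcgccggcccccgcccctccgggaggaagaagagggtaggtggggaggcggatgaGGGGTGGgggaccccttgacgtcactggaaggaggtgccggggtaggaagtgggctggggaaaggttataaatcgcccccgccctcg
Kdr: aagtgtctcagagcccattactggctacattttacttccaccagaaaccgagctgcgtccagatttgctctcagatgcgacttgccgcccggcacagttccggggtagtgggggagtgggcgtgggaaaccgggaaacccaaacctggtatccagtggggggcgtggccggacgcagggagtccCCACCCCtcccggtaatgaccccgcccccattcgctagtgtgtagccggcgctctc
Tek: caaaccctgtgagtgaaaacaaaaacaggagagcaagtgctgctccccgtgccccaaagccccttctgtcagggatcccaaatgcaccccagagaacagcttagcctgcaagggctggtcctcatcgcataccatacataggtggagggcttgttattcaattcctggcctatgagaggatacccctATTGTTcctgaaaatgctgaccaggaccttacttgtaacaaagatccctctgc
Cd34: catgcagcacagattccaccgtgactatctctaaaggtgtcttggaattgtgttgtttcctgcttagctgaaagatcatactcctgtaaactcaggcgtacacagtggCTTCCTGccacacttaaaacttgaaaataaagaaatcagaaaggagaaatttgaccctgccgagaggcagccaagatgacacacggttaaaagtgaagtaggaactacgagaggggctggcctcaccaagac
Mfsd2a: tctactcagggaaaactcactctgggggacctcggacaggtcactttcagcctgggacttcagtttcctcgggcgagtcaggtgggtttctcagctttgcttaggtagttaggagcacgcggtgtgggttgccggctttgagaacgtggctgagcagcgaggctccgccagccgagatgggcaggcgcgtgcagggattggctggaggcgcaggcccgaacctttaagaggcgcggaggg
On GRCm38 these are chr5:147726022-147726261 (minus strand) for Flt1, chr5:75978466-75978705 (minus strand) for Kdr, chr4:94739039-94739278 (plus strand) for Tek, chr1:194938571-194938810 (plus strand) for Cd34 and chr4:122961199-122961438 (minus strand) for Mfsd2a. None overlaps the annotated body of its own gene in GENCODE M21. The motif begins 97 bases before the start in Flt1, 66 in Kdr, 63 in Tek and 142 in Cd34.

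A gene was counted if any of its windows held the motif, and the 23 members had 30 windows. CAGGAAG was in 7 of 23 members (30.4%) against 12.1% of 27025 genes: Robo4, Cd34, Emcn, Abcg2, Erg, Egfl7 and Itm2a. AACAAT was in 4 members (17.4%, against 10.9%): Tek, Emcn, Slco1a4 and Erg. CCACCCC was in 4 members (17.4%, against 15.2%): Flt1, Kdr, Abcg2 and Itm2a. CCGGAAG was in 0 of 23, against 7.83% of all genes. With either ETS-type motif counted, it was again 7 of 23 (30.4%), against 19.0% of all genes. These counts describe letters in a short window, the motifs overlap in part of their letters, and no factor's binding was measured.

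Levels are given in CPM, counts divided by a library total that was scaled by the trimmed mean of M values (TMM). With 3' tags, they count messages rather than message length. Pull-down totals lay between 7714834 and 20792175 counts, and supernatant totals between 8739276 and 12931869. Astrocyte markers dominated the pull-downs: Aldh1l1 lay between 122 and 207 CPM there and between 1.64 and 15.0 CPM in the supernatants. The neuronal gene Snap25 lay between 25.7 and 90.7 CPM in the pull-downs and between 438 and 1170 CPM in the supernatants. All 36 members had counts in every pull-down. In the supernatants 35 had counts in every library, and Sox18 was at 0 in 4 of 20.

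The members' summed level ran from 589 to 3800 CPM over the 20 pull-downs, and the 20 supernatants held 260 to 399 CPM, with no overlap between the fractions. In sham mice on chow the pull-down sums were 589 to 1910 CPM with a median of 841. In sham mice on HFD they were 722 to 2330 CPM with a median of 929, and in orchiectomised mice on HFD 921 to 3800 CPM with a median of 1160. The 5 highest pull-downs stood apart from the other 15. They were sample 8 of the chow group (1910 CPM), sample 1 of the sham HFD group (2330 CPM), and samples 11, 6 and 22 of the orchiectomised group (2580, 2980 and 3800 CPM). The other 15 lay between 589 and 1280 CPM, the highest being sample 23 of the chow group. With levels scaled by total count alone the 5 lay between 1800 and 3930 CPM and the other 15 between 608 and 1240 CPM. The supernatants of the same 5 samples held 274 to 336 CPM, within the 260 to 399 CPM of the other 15. Results that rest on these 5 samples are given below with and without them.

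**Figure D1:**
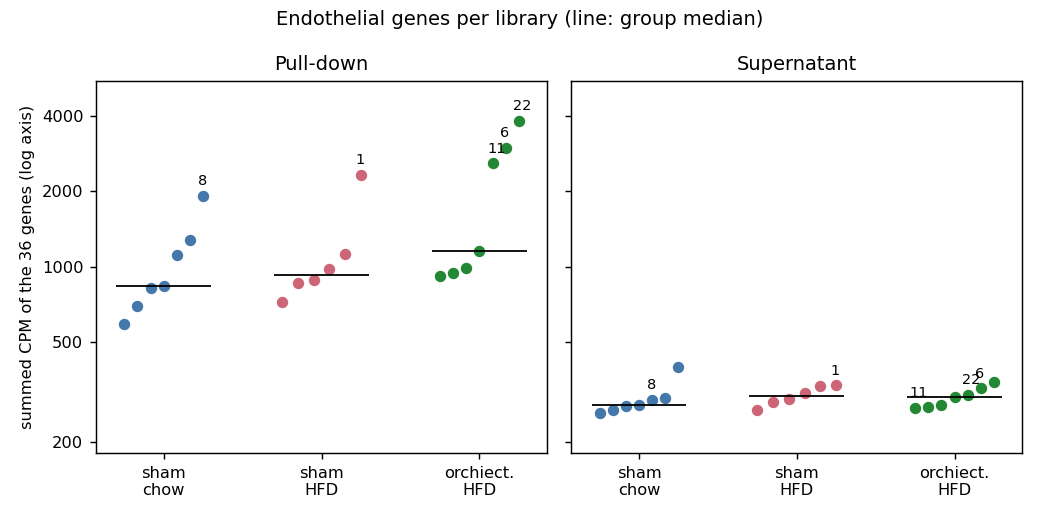
Summed CPM of the 36 endothelial genes (log axis) in each pull-down (left) and supernatant (right), by treatment group; each point is 1 library, the line is the group median, and samples 1, 6, 8, 11 and 22 are numbered. Those 5 pull-downs reach 1910 to 3800 CPM while the other 15 stay at or below 1280, and no such split is seen in the supernatants.

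The first question was how the pull-down treated endothelial messages. Compared with the supernatant, 35 of the 36 members were higher in the pull-down and 1, Egfl7, was lower (edgeR quasi-likelihood test, Benjamini-Hochberg adjusted p under 0.05, 20 libraries per fraction). Of all 15629 genes tested, 43.1% were called higher and 43.7% lower, so a call by itself was common. The median log2 fold change was 1.88 for the members and -0.01 for all genes. It was smaller than the median of 4.57 for the 12 astrocyte markers, all of which were higher. Neuronal markers (10 of 10 lower, median -3.69), oligodendrocyte markers (8 of 8 lower, median -3.64), microglia and macrophage markers (10 of 11 lower, median -2.45) and red blood cell markers (5 of 5 lower, median -1.61) went the other way. Mural cell markers, which come from the pericytes and smooth muscle around the same vessels, were mixed, with 8 higher and 3 lower of 13 tested and a median of 1.05. Pdgfrb, the pericyte receptor for platelet-derived growth factor, was 1 of the 8 higher ones, with a log2 fold change of 2.74 ± 0.13 (SE). It lay above the median of its list and does not stand for the mural markers as a whole. Fibroblast markers were also mixed (7 higher, 2 lower of 9, median 0.65).

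All 7 angiogenic receptors and their partners were higher, with a median log2 fold change of 2.25. Flt1, a receptor for vascular endothelial growth factor on chromosome 5 (147561604 to 147726011, minus strand), lay between 95.8 and 788 CPM over the 20 pull-downs, with a median of 155. In the supernatants it lay between 22.0 and 37.4 CPM, with a median of 26.6. The fractions did not overlap, and the log2 fold change was 3.12 ± 0.22 (SE, adjusted p = 6.73e-16). Ptprb, the phosphatase that restrains Tek, lay between 32.4 and 212 CPM in the pull-downs and between 6.28 and 20.1 CPM in the supernatants. Its log2 fold change was 2.61 ± 0.21. Tek, the angiopoietin receptor, stood at 2.67 ± 0.25, Kdr, the main signalling receptor for vascular endothelial growth factor, at 2.25 ± 0.19, and Tie1, an orphan relative of Tek, at 2.15 ± 0.28. Robo4, an endothelial roundabout receptor, stood at 1.97 ± 0.25 and Eng, a co-receptor of the transforming growth factor family, at 1.9 ± 0.24.

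Barrier transporters were the role with the highest median, 2.45, and all 6 were higher. Slco1c1, a carrier of thyroid hormone on chromosome 6 (141524368 to 141570177, plus strand), had the largest change of any member, 3.15 ± 0.14 (SE, adjusted p = 4.68e-23). It lay between 46.7 and 174 CPM in the pull-downs and between 7.31 and 16.0 CPM in the supernatants. Slc2a1, the glucose transporter of the barrier on chromosome 4 (119108711 to 119137983, plus strand), lay between 82.6 and 257 CPM in the pull-downs and between 26.5 and 52.2 CPM in the supernatants. Its log2 fold change was 1.83 ± 0.11. Abcb1a, the efflux pump P-glycoprotein, lay between 21.3 and 233 CPM in the pull-downs and between 6.95 and 14.5 CPM in the supernatants, a change of 2.78 ± 0.23. Slco1a4, an organic anion carrier, lay between 22.9 and 268 CPM and between 9.61 and 19.0 CPM, a change of 2.40 ± 0.22. In each of these 4 genes every pull-down was above every supernatant. Mfsd2a, the carrier of lysophospholipids that also restrains vesicle transport across the barrier, changed by 2.49 ± 0.13, and Abcg2, a second efflux pump, by 1.81 ± 0.18. Abcb1a and Slco1a4 have close relatives in the genome and held counts that were not whole in 34 and 28 of the 40 libraries, so their split from those relatives is uncertain.

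Junction, adhesion and sialomucin genes were all higher (8 of 8), by a smaller median of 1.54. Cdh5, the cadherin of endothelial junctions, had the largest change among them, 2.91 ± 0.21. Icam2 (1.85 ± 0.27), an adhesion molecule for leukocytes, Esam (1.78 ± 0.25), a junctional adhesion molecule, and Cldn5 (1.59 ± 0.24), the main claudin of the blood-brain barrier, followed. Emcn, a sialomucin of capillaries and veins, changed by 1.49 ± 0.22, Podxl, a podocalyxin of the luminal surface, by 1.40 ± 0.18, and Pecam1, the platelet and endothelial adhesion molecule, by 1.2 ± 0.20. Cd34, a sialomucin, had the smallest rise of the list, 0.84 ± 0.19 (adjusted p = 0.000131). The 5 transcription factors were higher with a median of 1.69: Sox18 by 2.06 ± 0.41, Foxq1 by 1.91 ± 0.25, Sox17 by 1.69 ± 0.22, Klf4 by 1.56 ± 0.21 and Erg by 1.23 ± 0.24. Sox18 was the least covered member, with 0.0794 to 4.13 CPM in the pull-downs.

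Of the other 10 endothelial genes 9 were higher. Adgrl4, an adhesion receptor of growing vessels, changed by 2.51 ± 0.27, Vwf, the von Willebrand factor, by 2.45 ± 0.27, and Cd93, a lectin-like receptor, by 2.44 ± 0.26. Ramp2, the partner of the adrenomedullin receptor, changed by 1.99 ± 0.13. Itm2a, a membrane protein enriched in brain endothelium, lay between 23.4 and 265 CPM in the pull-downs and between 13.4 and 24.4 CPM in the supernatants, a change of 1.86 ± 0.21. Ly6c1, a surface antigen of endothelium and monocytes, lay between 27.0 and 268 CPM in the pull-downs and between 17.4 and 48.5 CPM in the supernatants, a change of 1.45 ± 0.21. For both genes the fractions overlapped, unlike Flt1 or Slco1c1. Tm4sf1, a tetraspanin-like protein, changed by 1.54 ± 0.18, Nostrin, which binds endothelial nitric oxide synthase, by 1.33 ± 0.21, and Ly6a, the stem cell antigen Sca-1, by 1.19 ± 0.22. Ly6a and Ly6c1 are neighbours in a family of similar genes, and Ly6c1 held counts that were not whole in 29 libraries.

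Egfl7, a secreted factor of endothelium on chromosome 2 (26580014 to 26593120, plus strand), was the exception. It lay between 3.38 and 19.2 CPM in the pull-downs, with a median of 5.52, and between 11.2 and 23.5 CPM in the supernatants, with a median of 14.8. The log2 fold change was -1.01 ± 0.18 (SE, adjusted p = 2.8e-06). It was higher in the pull-down in only 2 of 20 samples, while 22 of the 36 members were higher in all 20. The share of all genes higher in all 20 was not taken, and 43.1% of all genes were called higher, so that count is a description only.

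**Figure D2:**
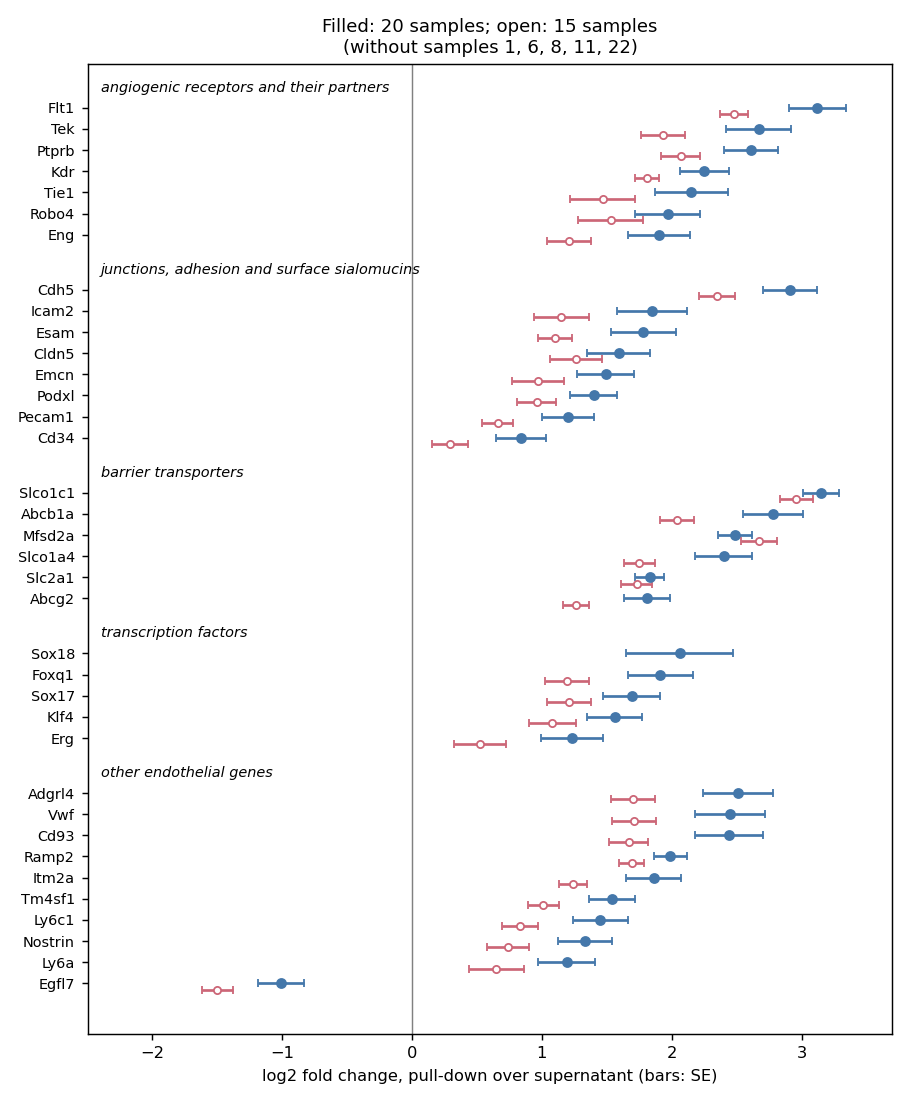
Log2 fold change of each member between pull-down and supernatant with its SE, by role; filled points use all 20 samples and open points the 15 samples without 1, 6, 8, 11 and 22. All members but Egfl7 lie above 0 in both fits, and the open points sit lower for most members but not for Mfsd2a; Sox18 was not tested in the smaller fit.

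Without samples 1, 6, 8, 11 and 22, 33 members remained higher, Egfl7 remained lower (-1.50 ± 0.12), Cd34 no longer passed (0.29 ± 0.14, adjusted p = 0.0619) and Sox18 fell under the count filter, while 85.3% of 15846 genes were called in either direction. The median log2 fold change went from 1.88 to 1.26 while that of all genes was -0.03. Flt1 went from 3.12 to 2.48 ± 0.11, Abcb1a from 2.78 to 2.04 ± 0.13 and Erg from 1.23 to 0.52 ± 0.20. Slco1c1 stood at 2.96 ± 0.13, Slc2a1 at 1.73 ± 0.12 and Mfsd2a at 2.67 ± 0.14, close to or above their values over all samples. The fall of the median is fixed in part by which samples were left out, since the 5 have the highest member sums.

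The wider set of vascular and barrier genes was read from 8 lists of 132 measured genes, 127 of which were tested. Between the fractions 97 were higher, 20 lower and 10 did not pass, with a median log2 fold change of 1.39. Many of them, such as Vegfa, Wnt7a, Notch1 and Lrp1, are also made by astrocytes. In the Wnt and norrin arm, which induces the barrier, 13 of 14 were higher. Fzd4, the norrin receptor (3.09 ± 0.11), its co-factor Tspan12 (2.78 ± 0.08) and Fzd6, another frizzled receptor (1.9 ± 0.12), had the smallest p. Of 20 other barrier transporters and receptors 18 were higher and 0 lower, led by Lrp1, a lipoprotein receptor (2.24 ± 0.08), Tfrc, the transferrin receptor (1.92 ± 0.08), and Slc3a2, the heavy chain of amino acid carriers (2.32 ± 0.11).

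Tight junction partners gave 8 higher and 4 lower of 13, among the higher ones Jam2, a junctional adhesion molecule (3.58 ± 0.09), and the scaffold gene Tjp1 (3.09 ± 0.14). Vascular ligands gave 15 higher and 3 lower of 20, among them the Wnt ligands Wnt7a (3.66 ± 0.11) and Wnt7b (3.78 ± 0.14) and the growth factor Tgfb2 (2.00 ± 0.06). Vascular receptors and Notch genes gave 14 higher and 4 lower of 19, with the Notch target Hey1 (2.08 ± 0.08), the co-receptor Nrp1 (1.43 ± 0.06) and Notch1 (4.27 ± 0.16). Leukocyte adhesion genes gave 5 higher and 1 lower of 6: Vcam1 (3.99 ± 0.14) and Icam1 (0.80 ± 0.16) were higher and Mcam (-2.42 ± 0.22) was lower. The caveolae and fenestrae list was split, with 4 higher, 3 lower and 2 not called of 9. Plvap, which spans the diaphragms of fenestrated capillaries, was lower (-2.15 ± 0.10), whereas the caveolar coat genes Cavin3 (2.56 ± 0.07) and Cavin1 (1.69 ± 0.12) were higher. Of 26 other endothelial genes 20 were higher and 4 lower, with the transcription factors Epas1 (3.30 ± 0.08) and Foxo1 (1.98 ± 0.06) and the matrix gene Vwa1 (2.13 ± 0.10) in front.

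The members varied far more between pull-downs than between supernatants. The SD of log2(CPM + 1) over 20 libraries had a median of 0.82 over the members in the pull-downs and 0.29 in the supernatants, and it was larger in the pull-downs for 36 of 36. For all 15629 genes the median was 0.26 in both fractions. The share of all genes with the larger SD in the pull-downs was not taken. The added 1 narrows the SD of genes at a few CPM, where several members lay in the supernatants. By fold range only Tie1 was wider in the supernatants (18.9-fold) than in the pull-downs (16.1-fold). Sox18, at 0 in some supernatants, had no such range there. In 28 of the 36 members the 5 pull-downs named above were the 5 highest of 20. Over all genes tested this held for 505, or 3.23%. As those 5 were picked by the sum of these very genes, the count is a description and was not tested. Sample 22 of the orchiectomised group was the highest pull-down for 28 members and sample 6 of that group for 6.

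The size of this spread differed from member to member. Flt1 read 372 CPM in sample 8, 506 in sample 1, 525 in sample 11, 685 in sample 6 and 788 in sample 22, against 95.8 to 216 CPM in the other 15 pull-downs. Vwf ran from 4.54 to 64.7 CPM over the 20 pull-downs, a 14.3-fold range, and Emcn from 1.15 to 26.3 CPM, a 22.8-fold range. By contrast 3 of the 6 transporters had smaller ranges than the other members. Their SD of log2(CPM + 1) was 0.39 for Slc2a1, 0.47 for Mfsd2a and 0.52 for Slco1c1, still above the median of 0.26 for all genes. Mfsd2a had a 2.89-fold range, and in samples 8, 1, 6, 11 and 22 it read 59.3, 42.3, 64.4, 36.6 and 36.6 CPM, in the middle or at the low end of its 34.2 to 98.9 CPM. Slc2a1 had a 3.11-fold range, with 121 and 113 CPM in samples 8 and 1 and 199, 158 and 257 CPM in samples 6, 11 and 22. Slco1c1 had a 3.72-fold range, although the 5 pull-downs were its 5 highest. Ramp2, outside the transporters, had a 3.98-fold range.

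**Figure D3:**
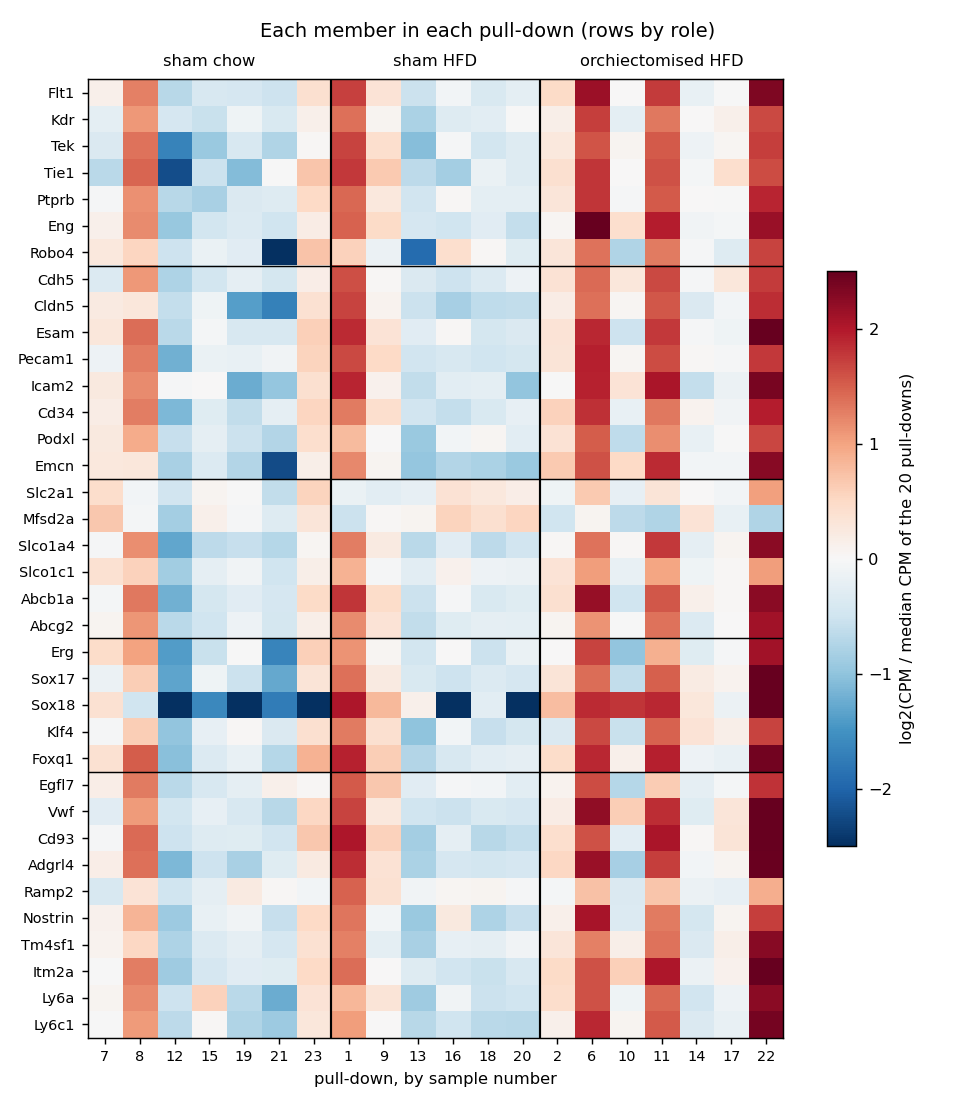
Each of the 36 members (rows, by role) in each of the 20 pull-downs (columns, by treatment group and sample number), as log2 of CPM over the gene's median CPM in the 20 pull-downs; red is above and blue below the median, and values beyond the scale are drawn at its ends. Samples 8, 1, 6, 11 and 22 are red for most members, and the row of Mfsd2a is the plainest exception.

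Other measures moved with the same samples. Gm42418, an RNA that overlaps a ribosomal RNA repeat, took 13.3%, 18.2%, 16.9% and 15.1% of the counts in pull-downs 8, 1, 11 and 22. It took 6.99% in pull-down 6 and 1.07% to 8.51% in the other 15. Mitochondrial messages made up 0.856% to 1.63% of those 5 libraries, against 0.643% to 0.866% for the rest. The 12 astrocyte markers summed to 38700 to 52100 CPM in the 5 and 44700 to 58400 CPM in the other 15, an overlapping range, and sample 22 was the lowest. Total counts overlapped as well (7714834 to 14303157 against 8368393 to 20792175).

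Markers of other cells of the vessel and tissue were also higher in part. The 14 mural cell markers summed to 273 to 598 CPM in those 5, against 141 to 278 CPM for the rest. The 10 neuronal markers summed to 429 to 737 CPM in the 5 and 244 to 418 CPM in the others, without overlap. The same neuronal markers held 3890 to 5270 CPM in the supernatants. The 5 red blood cell markers summed to 750 to 6740 CPM in the 5 and 230 to 1850 CPM in the others, the 11 microglia and macrophage markers to 79.3 to 165 and 65.9 to 89.5 CPM, and the 10 fibroblast markers to 272 to 362 and 263 to 727 CPM. The 7 pituitary markers summed to 15.9 to 57.2 CPM in the 5 and 3.10 to 22.9 CPM in the others. The 6 blood leukocyte markers summed to 25.7 to 35.2 CPM in the 5 and 4.23 to 31.0 CPM in the others. Other sums overlapped widely. Oligodendrocyte markers held 847 to 1330 CPM in the 5 and 776 to 1360 CPM in the others. Tanycyte and ependymal markers held 50.2 to 74.2 and 57.3 to 81.4 CPM, and choroid plexus markers 95.5 to 128 and 115 to 155 CPM. Hepatocyte-type plasma protein markers held 4.28 to 196 and 1.43 to 106 CPM. Gene by gene, the 5 pull-downs were the 5 highest for 2 of 14 mural, 2 of 10 neuronal, 2 of 8 oligodendrocyte and 1 of 7 pituitary markers. They were so for 0 of the 12 astrocyte, 5 red blood cell, 11 microglia and macrophage, 10 fibroblast and 6 leukocyte markers. The count was also 0 for the 9 tanycyte and ependymal, 6 choroid plexus and 7 hepatocyte-type plasma protein markers. No marker gene was at 0 in all pull-downs. The part of any of these measures in the endothelial levels was not tested.

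In the supernatants of the 5 samples, astrocyte markers stood apart and the members did not. The 12 astrocyte markers summed to 4180 to 4880 CPM in those 5 supernatants and to 1680 to 3450 CPM in the other 15. The 3450 CPM belonged to sample 23, whose pull-down also had the highest member sum of the 15. For 9 of the 12 astrocyte markers all 5 were above all 15, against 162 of 15629 genes (1.04%) and 0 of the 36 members. The 5 pull-downs with the highest endothelial sums were thus those of the 5 samples with the highest astrocyte sums in the supernatant. In bulk RNA, fewer cells of a type and less RNA per cell cannot be told apart.

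**Figure D4:**
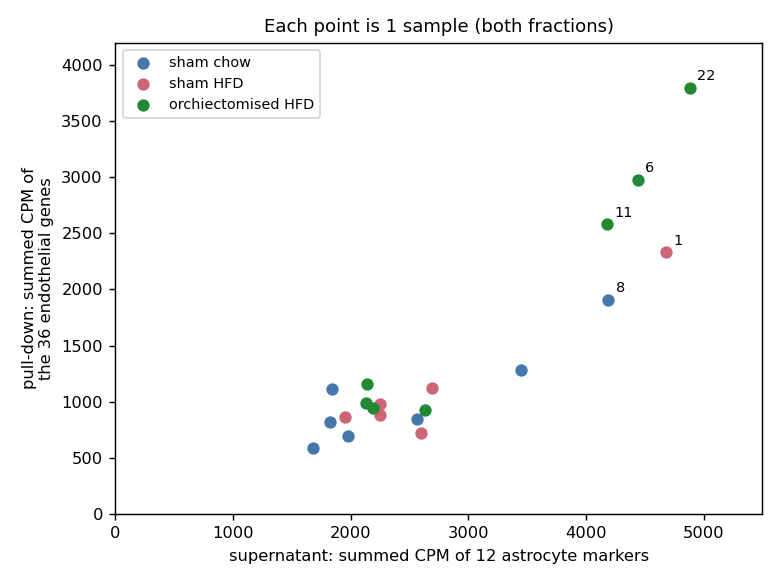
Summed CPM of 12 astrocyte markers in the supernatant (x axis) against summed CPM of the 36 endothelial genes in the pull-down (y axis), each point being 1 sample coloured by treatment group. Samples 8, 1, 11, 6 and 22 lie apart at 4180 to 4880 CPM on the x axis and 1910 to 3800 CPM on the y axis, and the other 15 lie at or below 3450 and 1280 CPM.

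How the members varied together was read within the other 15 pull-downs, since the samples fell into separate sets. Of the 35 other members, 34 correlated positively with Cldn5 on log2(CPM + 1), with a median Pearson r of 0.57 (range -0.31 to 0.92). In 19 of these the permutation p passed Benjamini-Hochberg adjustment over the 35, and 17 passed by Spearman's rho. The closest were Ly6c1 (r = 0.92, permutation p = 2e-05, adjusted 0.000525; rho = 0.89), Emcn (r = 0.89, permutation p = 3e-05, adjusted 0.000525; rho = 0.84) and Icam2 (r = 0.85, permutation p = 9e-05, adjusted 0.00105; rho = 0.85). Mfsd2a (r = 0.04), Egfl7 (0.16) and Ramp2 (-0.31) were the least like Cldn5 over the 15 pull-downs, which span the 3 treatment groups. Within the 6 chow pull-downs among them, untested, r was 0.59 for Mfsd2a, 0.1 for Egfl7 and -0.55 for Ramp2, so the low value of Mfsd2a was not seen within that group. The other groups held too few of the 15 for such a value. Without the 2 libraries farthest from the median of Cldn5 the median r was 0.65 and 33 were positive. Over the supernatants of the same 15 samples 0 of 35 passed, with a median r of 0.32 and 29 positive. Over all 20 supernatants 0 passed, with a median r of 0.19. The libraries share their depth and scaling within a fraction, so part of a correlation could be common to all genes. The share of all genes that pass with Cldn5 was not taken. The 19 of 35 therefore describes these members only and does not set them apart from other genes.

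Whether a sample's level in the pull-down followed its level in the supernatant was read over the same 15 samples. By permutation, 0 of 36 members passed, with a median r of 0.11, and the closest was Ramp2 (r = 0.74, permutation p = 0.00167, adjusted 0.0601; rho = 0.74). The share of all genes that pass was not taken here either.

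The effects of diet and orchiectomy were compared within each fraction. The 3 comparisons of a fraction share groups, so they are not independent of one another. By edgeR no member passed in the pull-downs for HFD against chow in sham mice (0% of 14059 genes called), for orchiectomy against sham on HFD (0% called) or for orchiectomised HFD against sham chow mice (0.0142% called, which is 2 genes, Esr1 and Tac2). No member's groups were free of overlap, against 0.0356%, 0.171% and 0.206% of all genes. At an unadjusted p under 0.05 there were 0, 10 and 22 of 36 members, against 240, 918 and 1566 of all genes (1.71%, 6.53% and 11.1%). The median log2 fold changes of the members were 0.16, 0.83 and 0.99, against -0.01, 0.01 and 0 for all genes, and 30, 34 and 35 of 36 lay above 0. Most members were high in the same few pull-downs, so these counts of members are not counts of independent observations.

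The 5 pull-downs that stood apart were 1 of 7 chow, 1 of 6 sham HFD and 3 of 7 orchiectomised samples. With them left out the medians were -0.03, 0.26 and 0.24, with 16, 30 and 28 of 35 above 0 and 0 called. This fall is fixed in part by the choice, since the 5 were the highest by the sum of these genes and 3 of them were orchiectomised. The Gm42418 share of the pull-downs had a median of 2.01% in chow, 3.18% in sham HFD and 6.58% in orchiectomised mice, and the neuronal marker sum had medians of 311, 322 and 350 CPM. The mural sum had medians of 199, 214 and 213 CPM, and the medians of the red blood cell sum (640, 622 and 494 CPM) and the fibroblast sum (364, 375 and 322 CPM) were lowest in orchiectomised mice. The part of these measures in the differences was not tested.

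In orchiectomised HFD against sham chow mice Sox18 had the smallest p. It read 0.0794 to 0.729 CPM in chow (median 0.165), 0.0887 to 2.25 CPM in sham HFD (median 0.537) and 0.503 to 4.13 CPM in orchiectomised pull-downs (median 1.93). The highest chow sample was above the lowest orchiectomised ones, so the groups overlapped. The log2 fold change was 2.72 ± 0.64 (SE, edgeR adjusted p = 0.353), whereas DESeq2 gave an adjusted p of 0.0386. That was the only member DESeq2 called in this comparison, in which it called 12 of 14059 genes (0.0854%). Sox18 rests on few counts, 1 to 33 per pull-down. Between sham HFD and chow Sox18 differed by 1.43 ± 0.70 (adjusted p = 1).

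Emcn read 1.15 to 6.63 CPM in chow (median 4.29), 2.79 to 12.6 CPM in sham HFD (median 3.22) and 5.19 to 26.3 CPM in orchiectomised pull-downs (median 8.61). Against chow the orchiectomised group differed by a log2 fold change of 1.51 ± 0.44 (edgeR adjusted p = 0.369) and against sham HFD by 1.36 ± 0.46 (adjusted p = 0.741). Without the 5 samples these were 0.70 ± 0.32 and 0.92 ± 0.34. Ly6c1 read 27.0 to 106 CPM in chow (median 50.1), 31.3 to 104 CPM in sham HFD (median 33.9) and 39.4 to 268 CPM in orchiectomised pull-downs (median 55.4). The difference between orchiectomised and sham HFD mice was 1.27 ± 0.49 (adjusted p = 0.741), and 0.42 ± 0.23 without the 5 samples.

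Mfsd2a went the other way. It read 34.2 to 98.9 CPM in chow (median 60.6), 42.3 to 91.2 CPM in sham HFD (median 73.1) and 36.6 to 77.8 CPM in orchiectomised pull-downs (median 43.8). The groups overlapped. The difference between orchiectomised and sham mice on HFD was -0.50 ± 0.23 (edgeR adjusted p = 0.741) with all samples and -0.53 ± 0.26 without the 5. Ramp2, the only other member below 0 in that comparison, stood at -0.10 ± 0.26, and at 0.24 once sham HFD sample 1 (45.6 CPM) was left out. Between HFD and chow in sham mice Ramp2 differed by 0.47 ± 0.26, Ly6a by -0.21 ± 0.47 and Ly6c1 by -0.12 ± 0.48, each with an adjusted p of 1. Without chow sample 8 the last 2 were 0.06 and 0.15.

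The members with the highest levels gave the same picture of overlapping groups. Flt1 read 95.8 to 372 CPM in chow (median 118), 107 to 506 CPM in sham HFD (median 140) and 136 to 788 CPM in orchiectomised pull-downs (median 216). Between orchiectomised and chow mice it differed by 1.17 ± 0.48 (edgeR adjusted p = 0.419), and by 0.29 ± 0.21 without the 5 samples. Slc2a1 read 82.6 to 186 CPM, 106 to 162 CPM and 109 to 257 CPM in the same order of groups, with medians of 125, 127 and 128. Slco1c1 read 46.7 to 126 CPM, 70.3 to 155 CPM and 74.5 to 174 CPM, with medians of 80.2, 80.6 and 108. The medians of Slc2a1 thus lay close together.

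Abcb1a read 21.3 to 122 CPM in chow, 33.7 to 168 CPM in sham HFD and 34.8 to 233 CPM in orchiectomised pull-downs, with medians of 40, 43.8 and 64.7. Slco1a4 read 22.9 to 126, 35.4 to 136 and 48.4 to 268 CPM, with medians of 37.7, 43.1 and 58.9. Ptprb read 32.4 to 124, 40.6 to 152 and 55.2 to 212 CPM, with medians of 45.3, 52.6 and 69.9. Itm2a read 23.4 to 105, 29.5 to 114 and 39.4 to 265 CPM, with medians of 36, 33.7 and 65.6. In these 4 genes the group maxima were samples 8, 1 and 22.

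In the supernatants 35 members were tested, Sox18 being under the count filter. By edgeR 0 passed in any of the 3 comparisons (0%, 0% and 0% of 14628 genes called), and at an unadjusted p under 0.05 there was 1 member in each, against 206, 439 and 331 of all genes. No member's groups were free of overlap here either (0.041%, 0.0889% and 0.0205% of all genes). The median log2 fold changes were 0, 0 and 0.05. Emcn differed by 0.56 ± 0.25 between HFD and chow and by 0.58 ± 0.24 between orchiectomised HFD and chow mice. It read 0.802 to 3.11 CPM in chow, 2.16 to 3.05 CPM in sham HFD and 1.80 to 3.46 CPM in orchiectomised supernatants, which overlapped. Between orchiectomised and sham mice on HFD, Cd34 differed by 0.41 ± 0.17, Robo4 by 0.65 ± 0.39, Pecam1 by -0.30 ± 0.15 and Foxq1 by -0.33 ± 0.21. The other members with the smallest p were Slco1a4 (0.29 ± 0.15), Cd34 (-0.24 ± 0.17) and Ptprb (-0.29 ± 0.23) for HFD against chow. For orchiectomised HFD against chow mice they were Vwf (0.37 ± 0.27), Esam (-0.27 ± 0.18) and Cd93 (-0.22 ± 0.17).

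**Figure D5:**
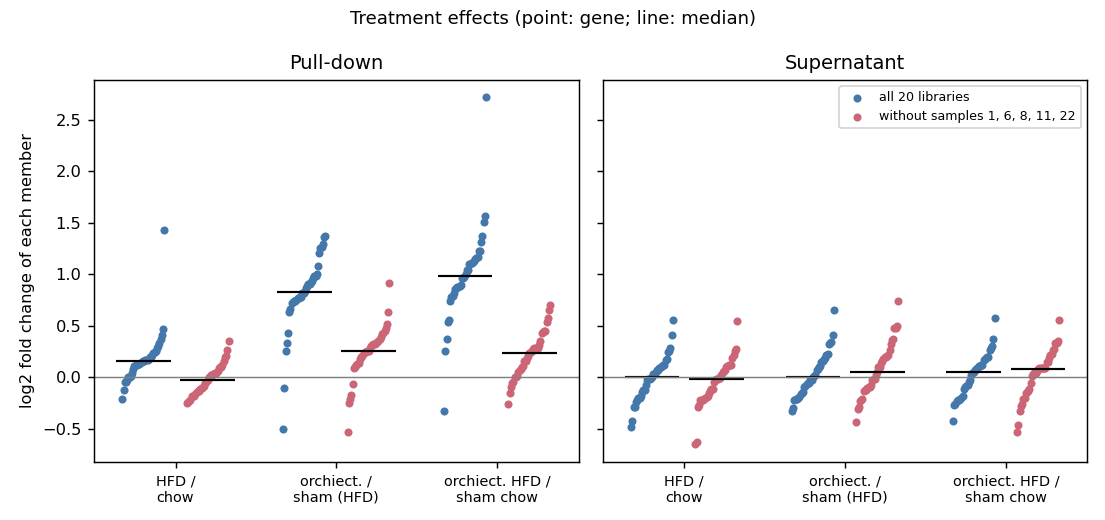
Log2 fold change of each member in the 3 treatment comparisons, in pull-downs (left) and supernatants (right); blue points use all 20 libraries of a fraction, red points leave out samples 1, 6, 8, 11 and 22, and the line is the median. In the pull-downs the medians go from 0.16, 0.83 and 0.99 to -0.03, 0.26 and 0.24, and in the supernatants both medians stay near 0.

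Whether a treatment effect differed between the fractions was tested as an interaction over all 40 libraries. By edgeR no member passed for HFD against chow (0% of 15629 genes called), for orchiectomy on HFD (0.0064%, 1 gene, Tac2) or for orchiectomised HFD against chow mice (0.0128%, 2 genes, Esr1 and Tac2). At an unadjusted p under 0.05 there were 1, 5 and 17 members, against 399, 692 and 1041 of all genes. Here too the members are not independent of one another. The median interaction was 0.17, 0.75 and 1.01, and 0.01, 0.16 and 0.14 without the 5 samples, a fall again fixed in part by how those were picked. The largest by p were Sox17 (1.5 ± 0.53, adjusted p = 0.737) and Ly6c1 (1.35 ± 0.50, adjusted p = 0.737) for orchiectomised HFD against chow mice, and Ly6c1 (1.33 ± 0.53) and Emcn (1.32 ± 0.54) for orchiectomy on HFD. For HFD against chow Sox18 stood at 2.30 ± 1.10, Tie1 at 0.73 ± 0.69, Emcn at -0.39 ± 0.56 and Slc2a1 at -0.17 ± 0.26. None of the 8 lists of vascular and barrier genes held a gene called in a treatment comparison or an interaction. An adjusted p above the threshold does not make an effect absent. Differences well beyond their standard errors also went uncalled by edgeR, such as that of Sox18 between orchiectomised HFD and chow pull-downs. Those standard errors come from the same test statistic as the p-values and add no separate evidence, and Sox18 rests on few counts.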

How the data were processed

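Poly(A) RNA was sequenced with the QuantSeq 3' FWD kit, per the labels' protocols, which reads 1 tag per message. Trim Galore 0.6.4, Salmon 1.9.0 and GRCm38 are named, per the submitters' processing notes; no source used here names the annotation or the strand setting. The authors deposited an estimated count (expected count) per gene symbol and library; 12.7% of the values above 0 were fractional, and they were rounded. A second table deposited by the authors holds a signal that returns, after 1 factor per library, the summed counts of 34 of 36 members in full and 99.9% of those of Adgrl4, and lists Erg at 0. It served as an alternative only.

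Tests were edgeR 4.0.16 quasi-likelihood fits in R 4.3.3 with TMM, filterByExpr at a minimum count of 10 and Benjamini-Hochberg adjustment over all genes. Fractions and interactions used 40 libraries and 6 group means, and treatments 20 libraries of 1 fraction and 3 group means. Each SE was calculated back from the log2 fold change and the F statistic of its quasi-likelihood test. The scripts were tested on simulated data. Alternatives were DESeq2 1.42.0, limma 3.58.1, other scaling, no filter, a replicate block and samples left out. Correlations used log2(CPM + 1), 100000 resamples and scipy 1.17.1; 20 pull-downs were planned and 15 used, because 5 stood apart. Values by group are given for the 8 members with the highest mean CPM and, per treatment comparison, for those with the 2 smallest p in each direction; 3 genes at most are named per pathway list. The ranges of Egfl7 and Vwf were added after their values were seen. The members and lists were chosen with earlier results of these data known. Positions are from GENCODE M21.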

Additional observations from a re-analysis of the deposited data

Results flagged for a closer look

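Values far from the rest of their group were sought in the 87 groups of 6 or 7 libraries formed by the named members, by Dixon's ratio of gap to range. The limit used would flag about 1 in 20 independent groups by chance. These groups share libraries and hold genes that vary together, so that rate does not apply to them. The search found 16 values, 10 of them on sham HFD sample 1. Samples 1 and 8 had been picked by the summed level of these genes, so their flags in the pull-downs are a description only. In its pull-down, against the range of the other 5, Flt1 read 506 CPM (107 to 196), Abcb1a 168.0 CPM (33.7 to 67.3), Slco1c1 155 CPM (70.3 to 91.7), Ptprb 152 CPM (40.6 to 68.1) and Slco1a4 136 CPM (35.4 to 66.1). Itm2a read 114 CPM (29.5 to 43.8), Ly6c1 104 CPM (31.3 to 51.3), Ramp2 45.6 CPM (15.3 to 21.3) and Emcn 12.6 CPM (2.79 to 5.69). In its supernatant Flt1 read 37.4 CPM (23.2 to 28.2). Chow pull-down 8 held 372 CPM of Flt1 (95.8 to 205 in the other 6) and 126 CPM of Slco1a4 (22.9 to 58.2). The orchiectomised group gave no such value in the pull-downs, where 3 of its 7 samples stood apart together.

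The other 4 lay in supernatants of samples whose pull-downs did not stand apart. Chow supernatant 15 held 48.5 CPM of Ly6c1 (19.2 to 28.3) and 6.5 CPM of Cd93 (2.86 to 4.14). Orchiectomised supernatant 17 held 5.1 CPM of Cd93 (2.89 to 3.80) and 4.81 CPM of Foxq1 (3.09 to 3.79).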

How the results depend on the processing

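Leaving out each sample in turn, 34 to 35 members were higher (34 without orchiectomised sample 2 or 6, where Sox18 fell under the filter) and 1 to 1 lower in the pull-down, and 0 to 0 were called in each of the 6 treatment comparisons and 3 interactions. The 36 calls between the fractions remained under DESeq2, limma voom, DESeq2 size factors and no filter. With the sample number as a replicate block 35 members were higher and 1 lower, with a median of 1.70, and no other call changed. Same-numbered fractions deviated together by a correlation of -0.104 to 0.197 over 20 pairs, 5 of them over 0.1, and 4 samples correlated best with their own number. Without the 4 samples rich in Gm42418 the median was 1.39 and the 35 members tested kept their calls. In the second deposited table Erg is listed at 0 throughout, so its log2 fold change was 0. DESeq2 called 1 member (Sox18, 2.81) between orchiectomised HFD and chow pull-downs, where edgeR called 0; over all genes DESeq2 called 12 and edgeR 2, and the cause was not tested. With 1 sample left out, between HFD and chow pull-downs Ly6a ran from -0.45 to 0.06 and Ly6c1 from -0.50 to 0.15, above 0 only without chow sample 8, and Ramp2 between orchiectomised and sham HFD pull-downs ran from -0.22 to 0.24, above 0 only without sham HFD sample 1. With CPM by total count, 1 member in place of 0 passed between the fractions of a sample, and 21 in place of 19 with Cldn5. Leaving out samples 1, 6, 8, 11 and 22 was chosen after seeing the data.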
